A study of Mus musculus with 20 samples.

Results

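Nkx2-3 and Madcam1 were followed through whole lymph nodes of 5 positions in mice without an adaptive immune system. They are 2 of the 56258 genes in the gene table and have 3 of the 149419 transcripts in the transcript tables, and were found by their symbols. Both were selected on their counts in gut-draining against inguinal nodes of these libraries, so that contrast is described here for them and not tested. Each of 5 positions gave 4 libraries: duodenal, jejunal and ileal nodes, which drain the small intestine, ceco-colonic nodes, which drain cecum and colon, and inguinal nodes, which drain skin and lie outside the gut. All 20 libraries came from 9-week-old Rag1-/- mice of the strain B6.129S7-Rag1tm1Mom/J, in which no mature T or B cells form, so the groups share this deletion and no Rag1-sufficient node was compared. Polyadenylated RNA of the whole node was sequenced, with a total of estimated counts between 148.2 and 304.6 M (mega counts) in a library. Whether libraries of the same position come from separate animals is not labelled, and p-values measure the spread between these libraries, which may be technical.

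Nkx2-3 is a homeodomain transcription factor of the NK-2 class that is made in the mesenchyme of gut and spleen and in the endothelium of mucosal vessels. In mice without it, mucosal vessels fail to display MAdCAM-1, the product of Madcam1. MAdCAM-1 is the mucosal addressin: it sits on high endothelial venules and lamina propria vessels, binds the integrin made of Itga4 and Itgb7 on gut-homing lymphocytes, and carries a mucin-like stretch. It is also found on marginal reticular cells and follicular dendritic cells, so its RNA in a whole node need not come from vessels. In a whole node, fewer cells of a type and less RNA per cell cannot be told apart.

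The coding stretches through which each protein does its work are given first, 5′ to 3′, from the GENCODE transcripts of the build GRCm38 (mm10) that bear the names in the deposited tables. In Nkx2-3, on chromosome 19, the capitals mark codons of the homeodomain helix that reads DNA, ending with the tyrosine codon typical of the NK-2 class. In Madcam1, on chromosome 10, the capitals mark the codons of the motif in the first immunoglobulin domain that the integrin binds.
Nkx2-3 exon 2: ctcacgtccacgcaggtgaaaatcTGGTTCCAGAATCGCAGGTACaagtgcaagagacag
Madcam1 exon 2: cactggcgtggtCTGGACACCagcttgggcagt

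Nkx2-3 (ENSMUSG00000044220) was present at much the same level in nodes of all 4 gut positions and was nearly missing from inguinal nodes. Levels are counts per M of a library's counts, scaled by the trimmed mean of M-values (CPM). The duodenal libraries had 23.4, 23.5, 21.5 and 18.1 CPM of Nkx2-3, and the jejunal ones had 22.4, 20.5, 19.98 and 23.99 CPM. It was 22.7, 20.1, 22.6 and 22.8 CPM in the ileal libraries and 22.9, 22.1, 21.6 and 22.1 CPM in the ceco-colonic libraries. In the inguinal libraries it was 0.0486, 0.0130, 0.0306 and 0.0452 CPM. No gut library came near the inguinal level, and the ranges of the gut positions overlapped one another. The inguinal values stand for 4 to 9 estimated counts a library, against 3570 to 6758 in gut libraries. Means were 21.9 ± 1.54 CPM in gut-draining nodes (SD, n = 16) and 0.0344 ± 0.0162 CPM in inguinal nodes (SD, n = 4), and the fitted log2 fold change was 9.42 ± 0.17 (SE). Because so few inguinal counts carry the fold, it moved between 9.03 and 9.67 when single libraries were left out.

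Madcam1 (ENSMUSG00000020310) was also higher in every gut library than in any inguinal library, but its level differed among gut positions and it was still plainly detected in inguinal nodes. Duodenal libraries had 103, 65.7, 72.8 and 47.7 CPM of Madcam1, and jejunal ones had 53.0, 33.3, 54.5 and 55.6 CPM. Ileal libraries had 75.3, 60.6, 70.4 and 53.6 CPM, and ceco-colonic libraries had 120, 144, 137 and 110 CPM. Inguinal libraries had 3.52, 3.85, 3.67 and 4.05 CPM. The 4 ceco-colonic libraries lay above all 12 small intestinal ones. Means were 78.6 ± 33.7 CPM in gut-draining nodes (SD, n = 16) and 3.77 ± 0.231 CPM in inguinal nodes (SD, n = 4), with a fitted log2 fold change of 4.29 ± 0.20 (SE). By position the log2 fold change over inguinal nodes was 4.26 for duodenal nodes, 3.702 for jejunal nodes, 4.11 for ileal nodes and 5.08 for ceco-colonic nodes. In that contrast 26.3% of the 29411 genes tested were called, from which nothing is read for either gene, since it chose them.

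**Figure D1:**
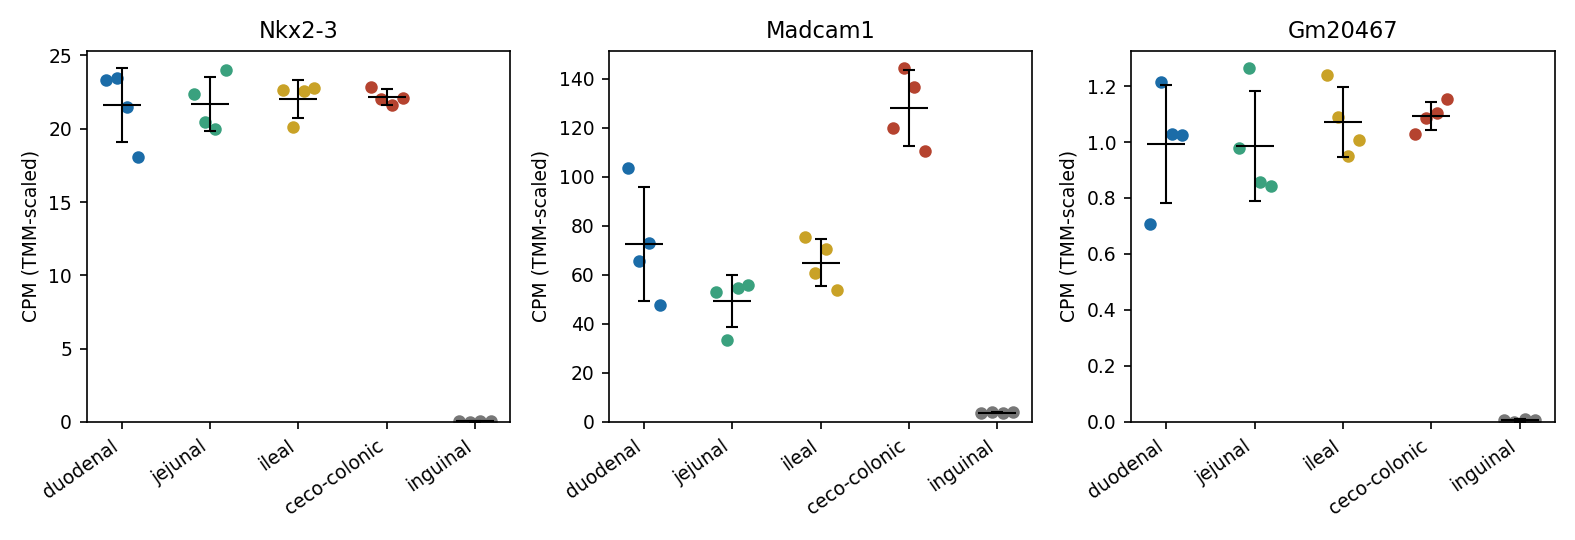
Levels of Nkx2-3, Madcam1 and the neighbouring long noncoding gene Gm20467 in CPM (vertical axes, each starting at 0) in the 4 libraries of each node position (points), with the mean and SD (black). Nkx2-3 lies between 18.1 and 23.99 CPM in all gut libraries, Madcam1 is highest in ceco-colonic nodes at 110 to 144 CPM, and Gm20467 follows the same division into gut and inguinal nodes as Nkx2-3.

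On a scale that corrects for transcript length, the addressin was the more abundant of the pair in every library. Madcam1 had 40.8 to 173 transcripts per M transcripts (TPM, median 79.7) in gut libraries and 4.40 to 5.19 TPM in inguinal libraries. Nkx2-3 had 12.6 to 16.1 TPM (median 15.2) in gut libraries and 0.0097 to 0.0357 TPM in inguinal libraries. Among genes with any TPM in a library, Madcam1 stood between the percentiles 90.0 and 98.0 in gut nodes and between 65.8 and 67.8 in inguinal nodes. Nkx2-3 stood between the percentiles 77.1 and 80.4 in gut nodes and between 4.74 and 11.6 in inguinal nodes. Inguinal nodes thus held Madcam1 RNA above the middle of the range of expressed genes while Nkx2-3 was among the rarest.

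Among the 4 gut positions, a contrast separate from gut against inguinal, Nkx2-3 showed no difference that passed the test and Madcam1 did. Both genes were chosen with earlier results of these data known, so these p-values may not be free of that choice. All p-values on differences between positions are edgeR quasi-likelihood p-values, adjusted over the 29411 genes by the Benjamini-Hochberg method. The F-test among the 4 gut positions gave an adjusted p of 0.991 for Nkx2-3 and 7.73e-05 for Madcam1, in a comparison that called 21.3% of genes. Duodenal nodes averaged 21.6 ± 2.51 CPM of Nkx2-3, jejunal nodes 21.7 ± 1.84 CPM, ileal nodes 22.0 ± 1.29 CPM and ceco-colonic nodes 22.2 ± 0.52 CPM (SD, n = 4 each). None of its 6 pairs of gut positions passed the test, and the largest difference between a pair was 0.0366 on the log2 scale. The 95% intervals of those 6 differences reached at most a fold of 0.836 at the low end and 1.16 at the high end, so a change of that size between positions would fit these data. Neighbouring positions in the order of Nkx2-3 levels therefore did not differ beyond their spread.

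Duodenal nodes averaged 72.4 ± 23.2 CPM of Madcam1, jejunal nodes 49.1 ± 10.6 CPM, ileal nodes 65.0 ± 9.76 CPM and ceco-colonic nodes 128 ± 15.4 CPM (SD, n = 4 each). The order of the means from high to low was ceco-colonic, duodenal, ileal, jejunal and then inguinal, but without duodenal libraries 1 and 2, or without duodenal library 1 alone, duodenal nodes lay below ileal nodes (log2 difference -0.11 and -0.0664). Ceco-colonic nodes differed from each small intestinal position, and the 3 small intestinal positions were not separated from one another by the test. The log2 difference was -0.82 ± 0.18 (SE, adjusted p = 0.00363) for duodenal against ceco-colonic nodes, where 16.4% of genes were called. It was -1.38 ± 0.19 (SE, adjusted p = 2.80e-05) for jejunal against ceco-colonic nodes, where 12.2% were called. It was -0.98 ± 0.18 (SE, adjusted p = 0.000990) for ileal against ceco-colonic nodes, where 12.8% were called. For duodenal against jejunal nodes (2.83% called) the difference was 0.56, with a 95% interval of 0.18 to 0.94 and an adjusted p of 0.101. For jejunal against ileal nodes, where 0.068% of genes were called, it was -0.40, with an interval of -0.78 to -0.02 and an adjusted p of 0.908. For duodenal against ileal nodes (14.6% called) it was 0.16, with an interval of -0.22 to 0.54 and an adjusted p of 0.610. These 3 intervals leave room for moderate differences within the small intestine.

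Taken over the 3 small intestinal positions against ceco-colonic nodes, Madcam1 was at a fold of 0.480, a log2 difference of -1.06 ± 0.14 (SE, adjusted p = 1.68e-05), in a comparison that called 16.6% of genes. Nkx2-3 differed by -0.03 ± 0.09 (SE, adjusted p = 0.901) in the same comparison, with a 95% interval for the fold of 0.867 to 1.11. In 2 of the duodenal libraries, numbers 1 and 2, the summed level of 8 pancreatic acinar genes was 29870 and 16910 CPM, while it was 5.76 to 82.0 CPM in all other libraries. These are the libraries with the higher Nkx2-3 levels of their position, and library 1 has the highest Madcam1 level of the small intestine. Without both, the adjusted p among gut positions was 1.618e-05 for Madcam1 and 0.751 for Nkx2-3, and the log2 difference of Madcam1 between small intestinal and ceco-colonic nodes was -1.15.

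The evenness of Nkx2-3 over the gut nodes and the unevenness of Madcam1 were set beside genes of like abundance, as a description. The coefficient of variation over the 16 gut libraries was 7.06% for Nkx2-3, and 9.77% was the median of 5029 genes within 2-fold of its mean level, which placed it at the percentile 23.2. For Madcam1 it was 42.9%, and the median of 4389 genes within 2-fold of its mean was 9.10%, which placed it at the percentile 99.1. Of those 4389 genes, 4350 varied less than Madcam1 from library to library. The number of Madcam1 CPM per Nkx2-3 CPM was 3.31 ± 0.81 for duodenal nodes, 2.26 ± 0.46 for jejunal nodes, 2.95 ± 0.42 for ileal nodes and 5.78 ± 0.77 for ceco-colonic nodes (SD, n = 4 each).

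Across the 16 gut libraries the pair did not move together by the test used. Madcam1 and Nkx2-3 had a Pearson r of 0.37 on log2 CPM (permutation p = 0.155, adjusted 0.278 over 9 relations computed) and a Spearman rho of 0.26 (permutation p = 0.326, adjusted 0.586). Without the 2 libraries farthest from the median of Nkx2-3, r was 0.20. With position means subtracted it was 0.57, with a p of 0.122 from permuting libraries within positions. The plot of Madcam1 against Nkx2-3 shows the ceco-colonic libraries above the others at the same Nkx2-3 level. By likeness over these libraries, Madcam1 ranked 1527 among the 13865 genes compared with Nkx2-3, and Nkx2-3 ranked 3325 among those compared with Madcam1.

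**Figure D2:**
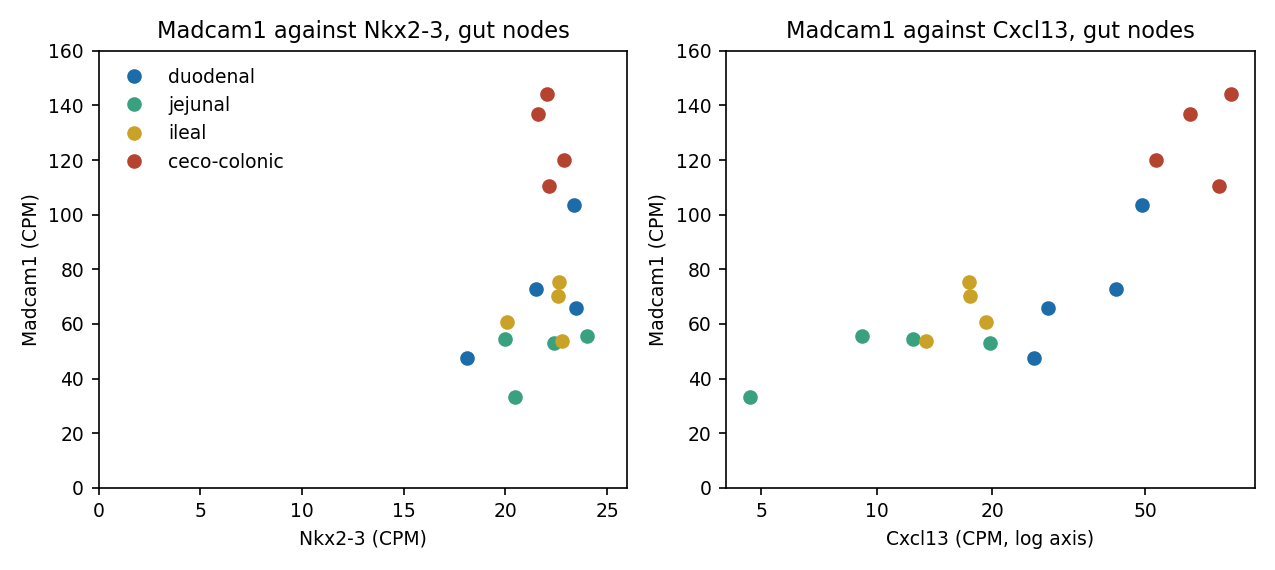
Madcam1 (CPM, vertical axes) against Nkx2-3 (CPM, left) and against Cxcl13 (CPM on a log axis, right) in the 16 gut-draining libraries, coloured by position. At 21.6 to 22.9 CPM of Nkx2-3 the ceco-colonic libraries hold 110 to 144 CPM of Madcam1, and the libraries richest in Cxcl13 are also ceco-colonic.

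Of the other 8 genes set against Madcam1, Cxcl13, the chemokine that draws B cells and is made by marginal reticular and follicular dendritic cells, had the highest r. Duodenal libraries had 49.1, 27.8, 42.0 and 25.6 CPM of Cxcl13, and jejunal ones had 19.7, 4.68, 12.4 and 9.15 CPM. It had 17.3, 19.3, 17.4 and 13.4 CPM in ileal libraries, 53.5, 83.5, 65.6 and 77.7 CPM in ceco-colonic libraries, and 191, 235, 174 and 182 CPM in inguinal libraries. Ceco-colonic nodes were the highest of the gut positions, as for Madcam1, but inguinal nodes were higher still, which is the reverse of Madcam1. Over the 16 gut libraries r was 0.90 (permutation p = 1e-05, the smallest that 100000 permutations can give, adjusted 9e-05) and rho was 0.78 (permutation p = 0.000580, adjusted 0.00522). Without the 2 libraries farthest from the median of Cxcl13 r was 0.83. With position means subtracted r was 0.71 (permutation p within positions = 0.00785, adjusted 0.0707), so the relation within positions did not pass the adjusted threshold. Cdh5, the cadherin of endothelial junctions, ran the other way with an r of -0.79 (permutation p = 0.000400, adjusted 0.00180) and a rho of -0.64 (permutation p = 0.00896), and with -0.26 once position means were subtracted and -0.75 without the 2 libraries farthest from its median. Itgb7 had an r of 0.70 (permutation p = 0.00180, adjusted 0.00540), a rho of 0.61 (permutation p = 0.0126), 0.57 without the 2 farthest libraries and 0.58 with position means subtracted (adjusted p within positions = 0.0998). The adjusted p of r was above 0.05 for the other 6 genes, among them Nkx2-3.

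To see Madcam1 beside the amount of vessel RNA, it was divided by the sum of 12 blood endothelial genes such as Cdh5, Pecam1, Kdr and Vwf. That sum was 1959 ± 196 CPM for duodenal nodes, 2204 ± 59.1 CPM for jejunal nodes, 2242 ± 176 CPM for ileal nodes, 1701 ± 42.0 CPM for ceco-colonic nodes and 2258 ± 154 CPM for inguinal nodes (SD, n = 4 each). This blood endothelial sum was thus lowest where Madcam1 was highest among gut nodes. Per 1000 CPM of these genes, Madcam1 reached 37.2 ± 12.9 CPM for duodenal nodes, 22.24 ± 4.604 CPM for jejunal nodes, 29.1 ± 4.19 CPM for ileal nodes, 75.1 ± 8.68 CPM for ceco-colonic nodes and 1.68 ± 0.127 CPM for inguinal nodes. The difference among the 4 gut positions had a permutation p of 8e-05 over 16 libraries (100000 permutations of the F statistic). The sum of 13 genes of high endothelial venules was instead lowest in ileal nodes. It was 1550 ± 13.1 CPM for duodenal nodes, 1201 ± 268 CPM for jejunal nodes and 999.5 ± 74.5 CPM for ileal nodes (SD, n = 4 each). Ceco-colonic nodes had 1209 ± 105 CPM and inguinal nodes 2013 ± 76.0 CPM (SD, n = 4 each). Glycam1 and Enpp2 make up most of this sum. Their means were 613.6 and 844 CPM in inguinal nodes, and 213 and 485.6 CPM in ceco-colonic nodes. A sum without them was not computed, so it and the values relative to it rest largely on these genes. Against these 13 genes the values per 1000 CPM were 46.6 ± 14.6 for duodenal nodes, 41.2 ± 5.95 for jejunal nodes, 64.7 ± 5.54 for ileal nodes, 106 ± 17.2 for ceco-colonic nodes and 1.88 ± 0.127 for inguinal nodes. All 4 ceco-colonic libraries stood above all 12 small intestinal libraries by both measures.

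Other cell types also shifted with position, and their part in the Madcam1 levels was not tested. The summed level of 8 reticular cell genes ran from 2546 to 6062 CPM in gut libraries and from 2307 to 3295 CPM in inguinal libraries, and ceco-colonic nodes had the highest mean of 5490 ± 385 CPM. Without Ccl21a, its most abundant member, this sum ran from 1995 to 2102 CPM in ceco-colonic libraries, from 1374 to 1945 CPM in small intestinal libraries and from 1484 to 1855 CPM in inguinal libraries. The sum of 9 lymphatic endothelial genes ran from 2400 to 4363 CPM in gut and from 1460 to 2170 CPM in inguinal libraries, but Ccl21a, which it shares with the reticular list, makes up most of it. Without Ccl21a the lymphatic sum averaged 663 ± 185 CPM for duodenal nodes, 1044 ± 147 CPM for jejunal nodes, 1092 ± 93.3 CPM for ileal nodes, 425 ± 67.6 CPM for ceco-colonic nodes and 611 ± 36.9 CPM for inguinal nodes (SD, n = 4 each), so it was lowest where Madcam1 was highest. The sum of 7 adipocyte genes also ran against Madcam1 among gut positions, with 114 to 411 CPM in duodenal libraries, 545 to 1938 CPM in jejunal libraries, 666 to 1160 CPM in ileal libraries and 92.5 to 328 CPM in ceco-colonic libraries, and it was 110.0 to 744 CPM in inguinal libraries. Jejunal library 2, which had the lowest Madcam1 level of the gut libraries, had the highest adipocyte sum. The sum of 11 intestinal epithelial genes was 17.7 to 27.9 CPM in gut libraries and 20.3 to 22.9 CPM in inguinal libraries, so the groups overlapped in this sum. Ceco-colonic libraries, at 17.7 to 19.3 CPM, lay below all other libraries, so this sum too was lowest where Madcam1 was highest. None of these sums had a marker at 0 in every library of a group.

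Madcam1 has 2 transcripts in the tables, and their proportion was much the same in all nodes. Madcam1-201 is 1436 bases long with 5 exons, and Madcam1-202 is 944 bases long with 4 exons. The short form joins exon 3 to the last exon and leaves out exon 4, whose 432 bases keep the reading frame and make up 35.5% of the coding bases of the long form. The 2 junctions are given with the bases after exon 3 in capitals, since they are what sets the transcripts apart.
Madcam1-201: gaaaggagattccagTACTACAGAGCCAGA
Madcam1-202: gaaaggagattccagCCTCCACCGTCGTCC
Exon 4 encodes the mucin-like stretch, where sugars are attached to serine and threonine. Of its 143 whole codons, 47 (32.9%) stand for serine, threonine or proline, against 27.2% over all codons of the long form. A stretch of 40 codons with 22 such codons (55%), the densest in the exon, is shown with them in capitals.
Madcam1 exon 4: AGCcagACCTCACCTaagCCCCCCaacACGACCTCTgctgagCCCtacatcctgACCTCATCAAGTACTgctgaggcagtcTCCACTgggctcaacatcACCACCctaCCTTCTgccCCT

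In duodenal libraries the short transcript took 21.8%, 21.6%, 21.4% and 18.96% of Madcam1 TPM, and in jejunal ones 23.0%, 19.7%, 23.0% and 25.1%. It took 21.4%, 21.2%, 23.6% and 22.2% in ileal libraries, 22.9%, 19.5%, 21.8% and 20.9% in ceco-colonic libraries, and 24.4%, 19.8%, 20.5% and 29.6% in inguinal libraries. All positions overlapped, and most of the RNA in each library was assigned to the form with the mucin-like exon. Among the 4 gut positions the share did not pass the test (permutation p = 0.427, n = 16 libraries). Leaving out single libraries gave a permutation p of 0.0758 (without jejunal library 2) to 0.652. The inguinal shares rest on 96.2 to 155 estimated counts of the short transcript, against 877 to 5494 in gut libraries, and were the most scattered at 23.6 ± 4.50% (SD, n = 4). The shares are the counting program's estimates from reads that mostly fit both forms. Nkx2-3 has a single transcript, of 2112 bases in 2 exons.

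**Figure D3:**
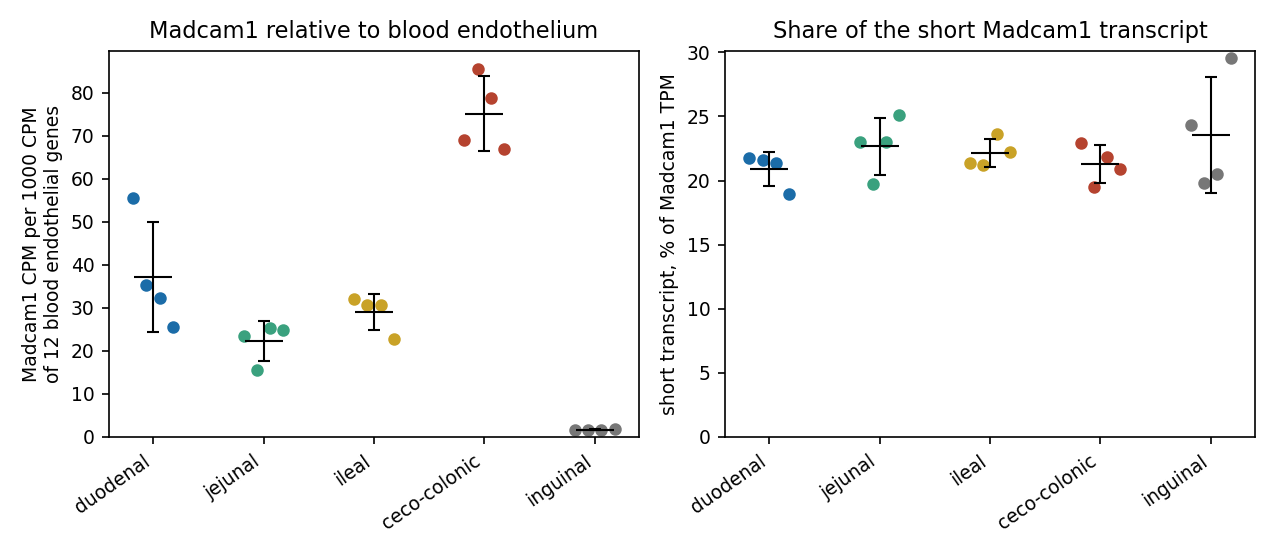
Left, Madcam1 CPM per 1000 CPM of 12 blood endothelial genes. Right, the share of the short transcript Madcam1-202 in Madcam1 TPM (percent), by node position. Points are libraries and black marks are mean and SD. Relative to vessel genes the ceco-colonic libraries lie at 67.0 to 85.6, above the other gut positions, while the share of the short transcript overlaps between all positions.

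The bases just before each gene's start are shown because both genes differ so strongly between gut and inguinal nodes. Each window holds 250 bases from the RefSeq promoter table of GRCm38.p6, plus strand, in which both genes were matched by symbol. Searched on both strands were AAGTG, the core that NK-2 proteins bind, GGGNNNNNCC, a loose form of the NF-kB element, AGGTCA, the half-site of nuclear receptors such as Nr2f2, and TATAAA. The loose NF-kB form was settled with these windows in view. Matches are in capitals, and overlapping ones run together.
Nkx2-3, chr19:43612075-43612324: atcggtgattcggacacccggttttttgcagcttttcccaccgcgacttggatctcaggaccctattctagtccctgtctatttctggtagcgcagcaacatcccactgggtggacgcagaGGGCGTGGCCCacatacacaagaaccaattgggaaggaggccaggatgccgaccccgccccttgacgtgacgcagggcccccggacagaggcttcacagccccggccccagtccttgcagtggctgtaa
Madcam1, chr10:79664309-79664558: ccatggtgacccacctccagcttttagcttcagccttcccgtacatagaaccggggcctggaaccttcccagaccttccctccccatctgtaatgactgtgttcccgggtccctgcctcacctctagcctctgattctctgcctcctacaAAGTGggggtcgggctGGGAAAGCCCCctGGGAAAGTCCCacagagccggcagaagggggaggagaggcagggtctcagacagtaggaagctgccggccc

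The Madcam1 window holds AAGTG at 100 to 96 bases before the start, a match that 40.7% of the 32851 windows in the table have somewhere. It also holds GGGNNNNNCC in a pair of places, at 84 to 74 and at 71 to 61 bases before the start. At least 1 match is found in 45.8% of windows, and 2 or more in 25.5%. That count includes overlapping matches on both strands, so the share of windows with a pair of separate places was not obtained. The Nkx2-3 window holds GGGNNNNNCC at 129 to 119 bases and lacks AAGTG. Neither window has the nuclear receptor half-site, AGGTCA, found in 14.02% of windows, or TATAAA, found in 12.4%. A match is a description of these letters and not a binding site.

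Of the annotated neighbours, the one next to Nkx2-3 shared its pattern. Gm20467 (ENSMUSG00000092250) is a long noncoding gene on the opposite strand that runs away from Nkx2-3 and begins 268 bases before it in GRCm38.p6. It had 0.707 to 1.26 CPM in gut libraries and 0 to 0.0102 CPM in inguinal libraries, which is 123 to 303 counts against 4 counts in the 4 inguinal libraries together. It passed the filter through gut libraries alone, so this difference is a description. Every gut library was above every inguinal one, and the F-test among gut positions gave an adjusted p of 0.882. Whether the counting used the strand of reads is not given in the sources used here, so reads of the 2 genes near their starts may not be told apart. Gm34922, the noncoding gene after Nkx2-3, had 0.133 ± 0.0348 CPM in gut (SD, n = 16) and 0.0801 ± 0.0267 CPM in inguinal nodes (SD, n = 4, adjusted p = 0.0348 by edgeR), and this call was lost in 4 of the alternatives. Near Madcam1, Shc2, a signalling adaptor before it, had 2.13 ± 0.502 CPM in gut and 0.718 ± 0.289 CPM in inguinal nodes (adjusted p = 1.18e-05 by edgeR). The genes after Madcam1 stood near their inguinal level: Tpgs1 had 30.3 ± 3.92 CPM in gut and 28.6 ± 2.11 CPM in inguinal nodes (adjusted p = 0.564 by edgeR), and Cdc34 had 49.6 ± 4.67 CPM in gut and 42.1 ± 2.01 CPM in inguinal nodes (adjusted p = 0.00857 by edgeR, and 0.0545 without inguinal library 3).

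Homing receptors, vessel and stromal genes, signalling genes and related transcription factors were examined through 7 lists. They hold 77 genes in all, of which 69 passed the filter on low counts. Of the 69, 21 were higher (13.4% of all genes tested were) and 17 lower (12.9% were) in gut-draining than in inguinal nodes, which is 38 called genes where 26.3% of all genes were called, and their median log2 difference was 0.05 against 0.00196 for all genes. Among gut positions 39 of the 69 were called by the F-test, where 21.3% of all genes were, and 30 without duodenal libraries 1 and 2, where 15.4% of all genes were. Of the 69, 5 passed the filter through gut libraries alone (Nkx3-2, Tcf21, Hand2, Isl1 and Tlx1), so their gut against inguinal differences are given as values with no p, and the first 4 are among the 21. The plot of the 7 lists shows the 4 highest fold changes in the NK homeobox and mesenchyme lists and the lowest at Cxcl13, in the list of marginal reticular and follicular dendritic cells. Those 4 are Tcf21, Hand2, Isl1 and Nkx3-2, so their height is a description.

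**Figure D4:**
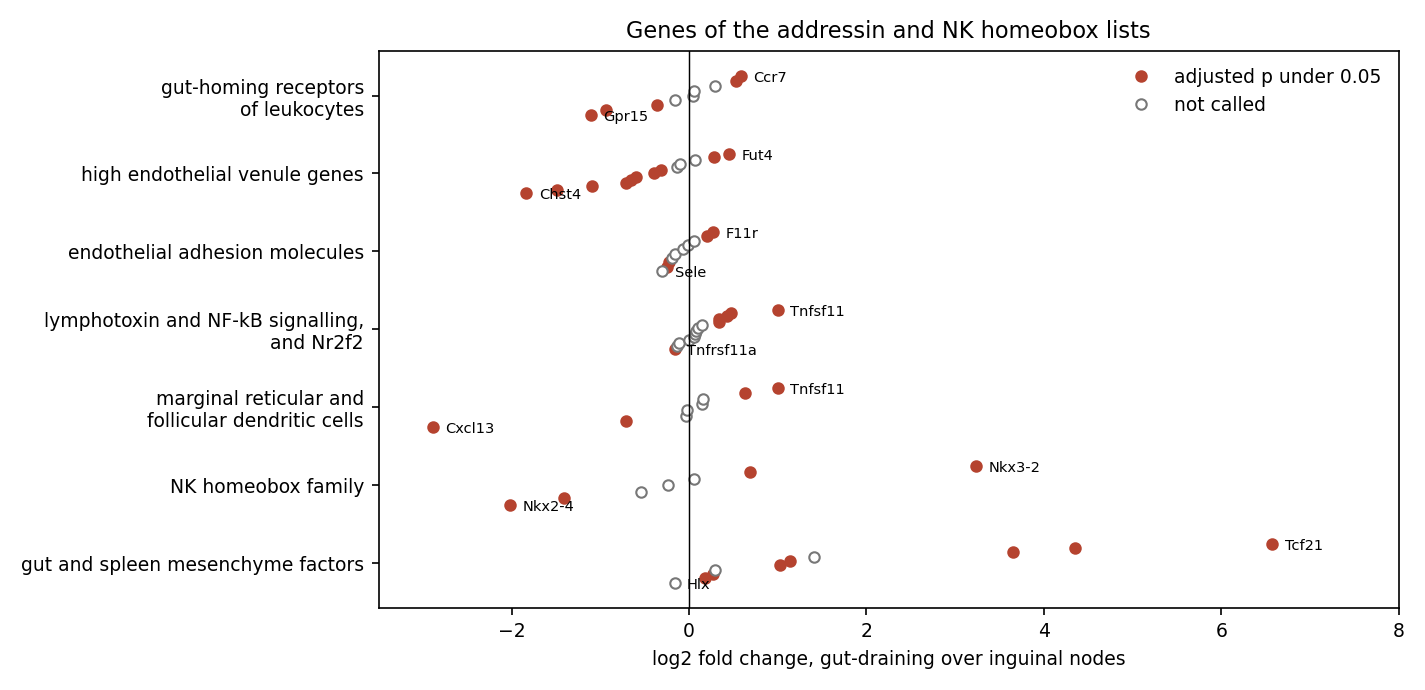
Log2 fold change of gut-draining over inguinal nodes (horizontal axis) for the 69 tested genes of 7 lists, Nkx2-3 and Madcam1 not among them. Filled points had an adjusted p under 0.05, and the lowest and highest gene of each list is named. Tcf21, Hand2, Isl1 and Nkx3-2 are also filled, but they passed the filter through gut libraries alone, so their fill is not read as a test. Cxcl13 lies farthest to the left at -2.88 and Tcf21 farthest to the right at 6.57.

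Of 9 receptors that guide leukocytes, 2 were higher and 3 lower in gut nodes, where 13.4% and 12.9% of all genes were. Both chains of the MAdCAM-1 receptor were present in the absence of mature lymphocytes, and they moved in opposite directions. Itga4 had 350 ± 35.3 CPM in gut (SD, n = 16) and 243 ± 9.94 CPM in inguinal nodes (SD, n = 4), a log2 difference of 0.52 (adjusted p = 7.75e-06 by edgeR). Itgb7 had 137 ± 14.5 CPM in gut and 175 ± 9.96 CPM in inguinal nodes, a difference of -0.36 (adjusted p = 0.000323 by edgeR), and for both chains the groups did not overlap. Neither chain passed the F-test among gut positions, with adjusted p of 0.298 for Itga4 and 0.114 for Itgb7. Gpr15, a receptor for homing to the large intestine, fell by 1.10 on the log2 scale (adjusted p = 5.87e-09 by edgeR), and Ccr7, the receptor for lymph node entry, was higher by 0.59 (adjusted p = 1.32e-06). Among gut positions Itgae, the integrin chain that retains cells in epithelia, was lower by 0.67 in small intestinal than in ceco-colonic nodes (adjusted p = 8.71e-07 by edgeR).

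High endothelial venule genes mostly went against Madcam1: of 13, 8 were lower and 2 higher in gut nodes, with a median log2 difference of -0.40. Over all genes 12.9% were lower and 13.4% higher. Glycam1, a sugar-bearing mucin of these venules, had 240.0 ± 122.5 CPM in gut and 613.6 ± 71.6 CPM in inguinal nodes (log2 difference -1.48, adjusted p = 4.02e-05 by edgeR). Chst4, a sulfotransferase that acts on such sugars, fell by 1.83 on the log2 scale (adjusted p = 1.92e-06), and Gcnt1, St3gal6 and Enpp2, which build these sugars or help lymphocytes across the vessel wall, were also lower, by 0.31 to 0.70. Among gut positions Glycam1 differed too (adjusted p = 0.00373 by edgeR), with the highest mean in duodenal nodes at 401 CPM and 213 CPM in ceco-colonic nodes. That order is not the one of Madcam1. Of the 13 genes, 4 were lower in small intestinal than in ceco-colonic nodes, the direction of Madcam1, and 1 was higher, where 16.6% of all genes were called. The lower ones were Chst2 by 0.50, Podxl by 0.30, Fut4 by 0.27 and Gcnt1 by 0.17 on the log2 scale (adjusted p = 0.00132, 0.00575, 0.0382 and 0.0279 by edgeR). St3gal6 was higher by 0.51 (adjusted p = 5.07e-07 by edgeR).

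Of 10 other endothelial adhesion molecules, 2 were higher and 2 lower in gut nodes, all by less than 0.3 on the log2 scale. Over all genes 13.4% were higher and 12.9% lower. Vcam1, the other vascular ligand of Itga4 integrins, had a difference of -0.25 (adjusted p = 0.00177 by edgeR), Pecam1 of -0.23 and F11r of 0.27. Icam1, at 0.20 (adjusted p = 0.0412), lost its call in 14 of the alternatives. Among gut positions 7 of the 10 were called, where 21.3% of all genes were, and Jam3 and Icam2, molecules of endothelial junctions and surface, were higher by 0.79 and 0.43 in small intestinal than in ceco-colonic nodes (adjusted p = 9.21e-07 and 4.72e-06 by edgeR), which is the opposite of Madcam1. In that comparison, where 16.6% of all genes were called, 4 of the 10 were higher and 1 was lower. The lower one was Sele, an adhesion molecule of activated endothelium, by 0.85 (adjusted p = 0.00527 by edgeR).

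Of 14 genes of lymphotoxin and NF-kB signalling, which switches Madcam1 on in endothelial and stromal cells, with the vein regulator Nr2f2, 5 were higher and 1 was lower in gut nodes. The shares over all genes were 13.4% higher and 12.9% lower. Tnfsf11, the RANK ligand of marginal reticular cells, had 43.2 CPM over gut nodes and 21.4 CPM in inguinal nodes (log2 difference 1.002, adjusted p = 7.30e-08 by edgeR). Ltb, a lymphotoxin subunit, was higher by 0.47, Map3k14, the kinase of the noncanonical pathway, by 0.43, and its targets Nfkb2 and Relb by 0.34 each (adjusted p from 7.55e-06 to 0.00609 by edgeR). The receptor Ltbr had a difference of 0.00432 (adjusted p = 0.971) and Nr2f2 of 0.15 (adjusted p = 0.182). Nfkb2 was lower in small intestinal than in ceco-colonic nodes by 0.30 (adjusted p = 0.00162 by edgeR), the direction of Madcam1, whereas Map3k14 had a difference of 0.10 (adjusted p = 0.296).

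Of 8 genes of marginal reticular and follicular dendritic cells, 2 were higher and 2 lower in gut nodes, where 13.4% and 12.9% of all genes were. Tnfsf11, one of the higher genes, is also in the lymphotoxin list, and Enpp2, one of the lower genes, is also in the venule list. Cxcl13 fell by 2.88 on the log2 scale and Enpp2 by 0.70, while Mfge8, the opsonin of follicular dendritic cells, was higher by 0.63 (adjusted p = 7.47e-10, 6.18e-07 and 0.000567 by edgeR). In small intestinal against ceco-colonic nodes Cxcl13 was lower by 1.87 (adjusted p = 3.43e-06 by edgeR), the direction of Madcam1. Coch was lower by 1.33 (adjusted p = 2.09e-05 by edgeR), but unlike Madcam1 it was not low in ileal nodes. Coch had 24.7 to 33.3 CPM in ileal libraries and 15.1 to 29.2 CPM in ceco-colonic libraries, which overlap. It had 2.93 to 4.87 CPM in duodenal libraries and 6.988 to 7.965 CPM in jejunal libraries. Of the 8 genes, 2 were called lower and none higher in small intestinal than in ceco-colonic nodes, where 16.6% of all genes were called.

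Among 13 other NK homeobox genes, 7 passed the filter and all had means below 1.2 CPM at every position. Nkx3-2, a factor of spleen and stomach mesenchyme, had 0.349 ± 0.0776 CPM in gut (SD, n = 16) and 0.0367 ± 0.0267 CPM in inguinal nodes (SD, n = 4), where it had 4 to 15 counts a library, and an adjusted p of 0.881 among gut positions by edgeR. Nkx1-2 was higher by 0.69, and Nkx2-4 and Nkx6-1 fell by 2.01 and 1.41 on the log2 scale, with inguinal means below 0.7 CPM for all 3 (adjusted p = 0.00225, 6.27e-05 and 4.85e-05 by edgeR). Nkx2-5, known for its role in the heart, stayed under the filter in these nodes with at most 0.00634 CPM as a position mean.

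Of 12 transcription factors of gut and spleen mesenchyme, 10 passed the filter, 7 were higher and none was lower in gut nodes, with a median log2 difference of 1.08. Over all genes 13.4% were higher and 12.9% lower. The filter admits genes through the group where they are high, so the count of 7 is a description. Tcf21, a factor needed to form the spleen, had 1.12 to 2.88 CPM in gut libraries and 0 to 0.0388 CPM in inguinal libraries, with 13 counts in all inguinal libraries together, and did not pass the test among gut positions (adjusted p = 0.466 by edgeR). Hand2 had 0.229 to 4.69 CPM in gut libraries and 0.0270 to 0.0585 CPM in inguinal libraries, and Isl1 had 0.0320 to 2.49 CPM in gut and 0 to 0.0486 CPM in inguinal libraries. Both differed among gut positions, with means of 3.05, 1.04, 0.887 and 0.274 CPM for Hand2 and 1.40, 0.396, 0.232 and 0.0569 CPM for Isl1 in duodenal, jejunal, ileal and ceco-colonic nodes (adjusted p = 1.92e-05 and 2.14e-05 among gut positions by edgeR). Duodenal libraries 2 and 3 had the highest levels, with Hand2 at 4.52 and 4.69 CPM, while libraries 1 and 4 of that position held 1.41 and 1.58 CPM. Isl1 was 1.47 and 2.49 CPM in libraries 2 and 3, and 0.627 and 1.02 CPM in libraries 1 and 4. The sum of 8 smooth muscle genes was 1529 and 1528 CPM in libraries 2 and 3, against 434 and 609 CPM in libraries 1 and 4, and its part in these levels was not tested. Foxf2 and Foxl1, forkhead factors of the gut mesenchyme, were higher by 1.02 and 1.14 (adjusted p = 0.000168 and 0.00859 by edgeR). Tlx1, another spleen factor, had 0.0529 ± 0.0395 CPM in gut (SD, n = 16) and 0.0160 ± 0.0133 CPM in inguinal nodes (SD, n = 4) and was not called.

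Genes with the profile closest to each member were ranked by Pearson r of log2 CPM among 13865 genes with a mean of at least 1 CPM, as a description. Genes with Gm-numbered or Rik names and segments of immunoglobulin or T-cell receptor genes were left out of this ranking. Over all 20 libraries, which mostly restates the division into gut and inguinal nodes, the 5 closest to Nkx2-3 were Lrrn2, Dkk3, Fndc5, Ptk6 and Col14a1, with r from 0.98 to 0.99. Lrrn2 had 16.2 ± 2.71 CPM in gut and 0.519 ± 0.0422 CPM in inguinal nodes, and Col14a1, a fibril-associated collagen, 214 ± 44.1 CPM and 20.3 ± 3.44 CPM (SD, n = 16 and n = 4). The 5 closest to Madcam1 over 20 libraries were Adamdec1, Rrbp1, Lratd1, Tnfrsf11b and Spint1, with r from 0.96 to 0.98. Adamdec1, a protease of gut stroma and macrophages, had 21.9 ± 4.91 CPM in gut and 3.90 ± 0.468 CPM in inguinal nodes, and Tnfrsf11b, the decoy receptor of the RANK ligand, 5.70 ± 1.78 CPM in gut and 1.25 ± 0.113 CPM in inguinal nodes. Over the 16 gut libraries alone the lists changed: Prg3, Eml2, S100a6, Cd2 and Apobr came closest to Madcam1 with r from 0.92 to 0.94, and Zfp428, Bola1, Lurap1l, Siva1 and Tusc1 to Nkx2-3 with r from 0.75 to 0.77. The lower r for Nkx2-3 goes with its small range in these libraries. None of the 10 genes closest over gut libraries is among the 10 closest over all libraries.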

How the data were processed

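Bulk polyadenylated RNA of 20 whole nodes was measured. The submitters' processing notes name kallisto, limma, edgeR and the builds mm10 and GRCm39, without versions or roles. The table of genes that the authors deposited has estimated counts (expected counts), and their deposited transcript tables hold estimated counts and TPM. For 12483 genes with at least 500 in every library, 98.5% of the gene values equal length-scaled TPM within 0.01 on the log2 scale. They were rounded. 135 genes without a symbol stayed in.

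Counts were tested with edgeR 4.0.16 (R 4.3.3): filterByExpr by position (minimum count 10, total 15), TMM, 1 mean per position over all 20 libraries, Benjamini-Hochberg adjustment over 29411 genes, threshold 0.05. Log2 CPM used a prior count of 2. Single values were tested with 100000 two-sided permutations (numpy 2.4.6). The procedure was tested on simulated data.

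Members and lists were chosen with earlier results of these data known. Genes named are, per list, up to 5 called in gut against inguinal and 3 among gut positions, neighbours, and the 5 most alike; Ltbr, Nr2f2, Tlx1, Nkx2-5, Gm20467's counts, the correlated genes and, after their values were seen, Sele, Chst2, Fut4 and the sums without Ccl21a were added. A gene that this rule names is not reported here. Alternatives were DESeq2 1.42.0, its size factors, limma-voom 3.58.1, no filter, plain transcript sums, a replicate block, other sets of libraries and leaving out each library. Sequences come from RefSeq (GRCm38.p6) and GENCODE M21.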

Additional observations from a re-analysis of the deposited data

Results flagged for a closer look

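Each of 30 groups of 4 libraries was examined for 1 library standing far from the rest, and chance flags about 1 in 20 such groups. Nkx2-3 in ileal library 2, at 20.1 CPM, lay below the other ileal libraries, which were at 22.6 to 22.8 CPM. Madcam1 in jejunal library 2, at 33.3 CPM, lay below the other jejunal libraries, which were at 53.0 to 55.6 CPM. In the same library Cxcl13 was at 4.68 CPM and Glycam1 at 68.3 CPM, each the lowest of its position. Madcam1 per 1000 CPM of high endothelial venule genes in inguinal library 4 was 2.06, above the other inguinal libraries. The share of Madcam1-202 in duodenal library 4 was 18.96%, below the other duodenal libraries at 21.4% to 21.8%.

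The excess of Madcam1 over inguinal nodes differed between gut positions. Its p is that of the F-test among the 4 gut positions given above (adjusted p = 7.73e-05 by edgeR). The inguinal mean does not enter that contrast, so this is no further test. The excess was largest in ceco-colonic nodes.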

How the results depend on the processing

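Over 8 alternative fits or sets of libraries, the adjusted p of Madcam1 among gut positions stayed between 2.65e-12 and 0.000471 and that of Nkx2-3 between 0.751 and 1. Leaving out single libraries gave 8.58e-06 to 0.000759 for Madcam1. The log2 difference of Nkx2-3 between small intestinal and ceco-colonic nodes lay between -0.0389 and 0.0052 over single libraries left out, changed sign without duodenal replicate 4, and was -0.0676 without duodenal libraries 1 and 2. The log2 fold change of Nkx2-3 over inguinal nodes lay between 9.03 and 9.67. Madcam1 in duodenal against ileal nodes turned to -0.11 without duodenal libraries 1 and 2 and ranged from -0.0664 (without duodenal replicate 1) to 0.3263 over single libraries left out, and the cause was not tested. Its difference between duodenal and jejunal nodes passed the threshold with DESeq2 (adjusted p = 0.0361) and without duodenal replicate 4 (adjusted p = 0.0240). Leaving out single libraries gave an r of 0.27 to 0.47 between Madcam1 and Nkx2-3. Of the listed genes, 37 to 42 were called between gut and inguinal nodes over all alternatives and 30 to 44 among gut positions.

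Same-numbered libraries of different positions had correlated deviations in 13 of 40 pairs (r over 0.1), with a range of -0.09 to 0.36 and a median of 0.08, and 17 of 20 libraries were on average closest to their own number. The numbers were not taken to pair libraries. The permutation tests and correlations were not repeated with same-numbered libraries kept together. With the number as a replicate block, the adjusted p of Madcam1 among gut positions was 8.66e-05 and that of Nkx2-3 was 0.988, and 42 and 44 listed genes were called.

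Depth limits the inguinal values of Nkx2-3 and Gm20467, which rest on 26 and 4 counts, and the fold of each is uncertain for that reason. Counts of Madcam1 were ample at all positions.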
